A study of Mus musculus with 16 samples.

Results

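These results concern the H3K4me3 peaks of the mouse line carrying a mutant PRDM9 transgene, B6-TgYF, that had no counterpart in the list of the line without a transgene, B6. A peak was taken when it lay on chromosomes 1 to 19 and shared not even 1 bp with a B6 peak, whether or not the line with the unmutated transgene, B6-TgWT, had a peak there. Members were thus chosen by the measured peak positions of 2 lists. The rule gave 523 of the 41558 B6-TgYF peaks, 1.26% of that list, out of 138202 peaks over the 3 lists. Of these, 21 lay at the start of chromosome 11, below 3.2 Mb, and are described apart from the other 502.

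Whole testes of mice 13 days post-partum had been used for H3K4me3 ChIP-seq, with 2 libraries and 1 input per line. B6-TgYF mice were C57BL/6JRj-Tg(RP23-159N6*)23Bdm, B6-TgWT mice were C57BL/6J-Tg(RP23-159N6*)43Bdm, and B6 mice were C57BL/6JOlaHsd. The 3 groups therefore differed in substrain as well as in transgene, each transgene was studied in 1 line, and while the B6 samples are labelled 13 days, their list has a 12 in its name. RP23-159N6 is the bacterial artificial chromosome clone from which both transgenes were made. Names in the labels mark both transgenes as cast, and they are known to encode a zinc finger array that binds other sequences than the PRDM9 of B6 mice. The labels name a Prdm9 knockout only for other mice of the series, which were used for DMC1 ChIP-seq and are not analysed here. Each line had 1 peak list for both libraries, so no difference below can be set against a spread between replicates, and no test was run. Intervals are 95% Wilson intervals over peaks, which share their libraries and are no replicates, and they cover counting error only.

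PRDM9 is a meiotic histone methyltransferase whose zinc fingers bind particular DNA sequences and whose SET domain places H3K4me3 on the nucleosomes beside them. Meiotic double-strand breaks form at these sites. H3K4me3 also marks active promoters in every cell of the testis, so a list from whole testis holds both kinds of site. The YF transgene is known to carry a substitution in the catalytic domain, and the study asked whether the methyltransferase activity is needed for break formation. A B6-TgYF peak without a B6 counterpart is where H3K4me3 placed by the mutant protein would be looked for. Sequence and gene annotation of mm9, the build of the lists, were not used here, so no peak is assigned to a gene or a motif and no sequence is shown.

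Outside the start of chromosome 11 the 502 peaks were weak members of their list. The authors' fold enrichment over background had a median of 3.66, from a lowest of 1.45 to a highest of 22.32, against a median of 7.62 over the 41035 B6-TgYF peaks that overlapped B6. The median −log10 p was 13.135, where the lowest value of the whole list was 11 and the median of the peaks overlapping B6 was 56.58. In all, 479 of 502 (95.4%, interval 93.2 to 96.9) had a −log10 p under 20, against 7614 of 41035 (18.6%) of the peaks overlapping B6. By fold enrichment, 457 of 502 lay in the weakest 20% of the list and 1 lay in its stronger 50%. The rule used the calls of this same list, so these values are a description.

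The share of the list made up by the 502, which leaves out the start of chromosome 11, followed the strength of the call closely. Of the B6-TgYF peaks with −log10 p from 11 to 12, the 502 made up 13.5%, or 97 of 718. The share was 10.4% from 12 to 13, 7.03% from 13 to 15 and 2.74% from 15 to 20. From 20 to 30 it was 0.358%, or 20 of 5585, and above 30 it was 0.0108%, or 3 of 27861. Those 3 lay on chromosomes 6 and 5 and are described below.

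**Figure D1:**
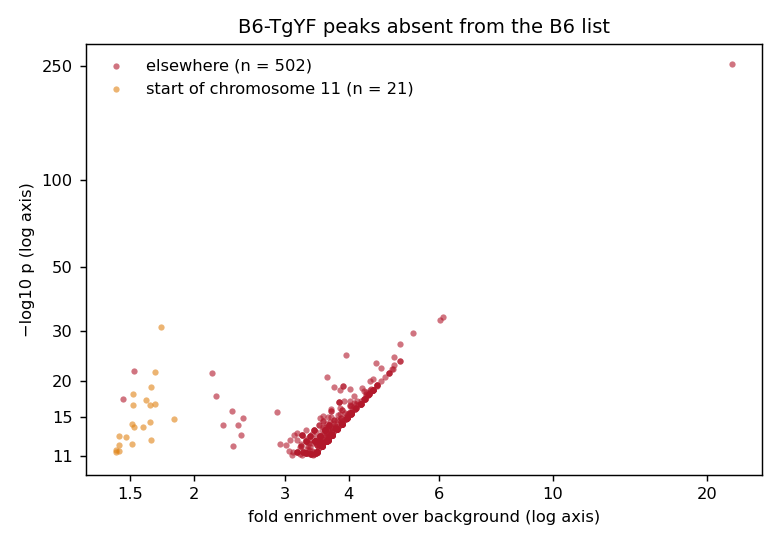
Fold enrichment over background (horizontal, log axis) against −log10 p (vertical, log axis) for the 523 B6-TgYF peaks absent from B6, each point 1 peak as the authors' list gives it. Most of the 502 peaks elsewhere follow a rising band near the lowest −log10 p, with 1 peak far above at a fold of 22.32. The 21 peaks at the start of chromosome 11 sit left of the band at folds of 1.41 to 1.83. Of the 502, 10 with folds under 2.5 also lie left of it.

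The peaks were also narrower than others of like strength. Their median width was 527 bp (interval of the median 507 to 559), against 1181 bp for the B6-TgYF peaks overlapping B6. Within the weakest decile of fold enrichment the medians were 507 bp and 696 bp, within the second decile 551 bp and 723 bp, and within the third 628 bp and 805 bp. A narrow peak misses a neighbour more readily, so the rule itself favours narrow peaks, and the widths are a description like the strengths. The widest of them, at chr17:39980080-39983684, was 3605 bp wide with a fold of 1.45. The next, at chr7:24889226-24891241, was 2016 bp wide with a fold of 2.9.

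They were spread over all 19 autosomes. They made up between 0.931% of the list's peaks on chromosome 4 (24 of 2579) and 2.17% on chromosome 14 (34 of 1568). Chromosome 14 with its interval of 1.56 to 3.01, chromosome 18 with 1.79% (1.22 to 2.63) and chromosome 13 with 1.69% (1.22 to 2.34) were the highest. Of the 502, 453 had no other within 100 kb. No share for as many peaks placed at random was computed, so this does not say whether they were clustered or spread out. The rest formed 23 pairs and 1 group of 3, at chr6:52100536-52100867, 52170068 to 52170404 and 52215278 to 52216649, with folds of 3.64, 3.55 and 3.3.

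Distances to the B6 list varied widely. The median distance to the nearest B6 peak was 9872 bp, and 40 of 502 lay over 100 kb away. At the other end, 81 of 502 (16.1%) lay within 1 kb and 65 within 500 bp of a B6 peak. Just inside the rule were peaks 7 bp from a B6 peak (chr6:52170068-52170404), 62 bp (chr11:97530313-97530725) and 68 bp (chr1:182866486-182866712), with folds of 3.55, 3.49 and 3.47. Outside it, the smallest overlaps were 137 bp, 154 bp and 155 bp, at peaks with folds of 4.05, 3.55 and 3.3 on chromosomes 8, 11 and 16. These peaks were 439 bp, 154 bp and 307 bp wide, so the one on chromosome 11 was covered by B6 over its whole width. The peaks named on either side of the rule had folds of 3.3 to 4.05, which describes these peaks only. Within their own list, 72 of 502 (14.3%, interval 11.5 to 17.7) lay within 1 kb of another B6-TgYF peak, against 15.3% of the B6-TgYF peaks overlapping B6. Their median distance to the nearest other B6-TgYF peak was longer, at 12072.5 bp (10194 to 14077). For the peaks overlapping B6 it was 9620 bp (9433 to 9788).

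The lists also hold a trace of peaks that are not in them. Each peak name carries a number, and in each list the numbers increase along every chromosome with no exception and none repeated. The B6 list runs to 90822 with 51176 peaks, so 39646 numbers are missing from it. Here the numbers are taken to be the caller's count of all its calls along the genome, an assumption that no source states, so that a jump between neighbouring B6 peaks counts unlisted calls in that stretch. Such a number does not give the place of the call within the stretch, its strength or why it is not in the list.

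By this measure B6 mostly had unlisted calls around the B6-TgYF peaks it lacked. Of the 502, 498 (99.2%, interval 98.0 to 99.7) lay in a stretch with at least 1 unlisted B6 number. Over all stretches between neighbouring B6 peaks the share was 41.1%, and around the 9002 B6-TgWT peaks absent from B6 (19.3% of the B6-TgWT list) it was 70.4% (6340 of 9000 with a B6 peak on both sides). The 502 lay in 490 different stretches, and in 486 of these the unlisted B6 numbers were at least as many as the B6-TgYF peaks. Most of these stretches held only 1 of the 502, so this count largely repeats the 498 of 502.

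Long stretches hold more unlisted calls, so the shares were read within classes of length. In stretches under 10 kb, 47 of 47 B6-TgYF peaks absent from B6 (interval 92.4 to 100) had an unlisted B6 number beside them, against 105 of 328 B6-TgWT peaks absent from B6 (32.0%, 27.2 to 37.2) and 18.1% of all stretches. From 10 to 20 kb the shares were 94.2%, 42.2% and 33.6%, and from 20 to 50 kb they were 100%, 51.9% and 48.1%. Above 200 kb the 3 shares came closer, at 100%, 96.0% and 91.4%. In every class the B6-TgYF peaks stood above both others, and the classes below 100 kb separated them most.

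**Figure D2:**
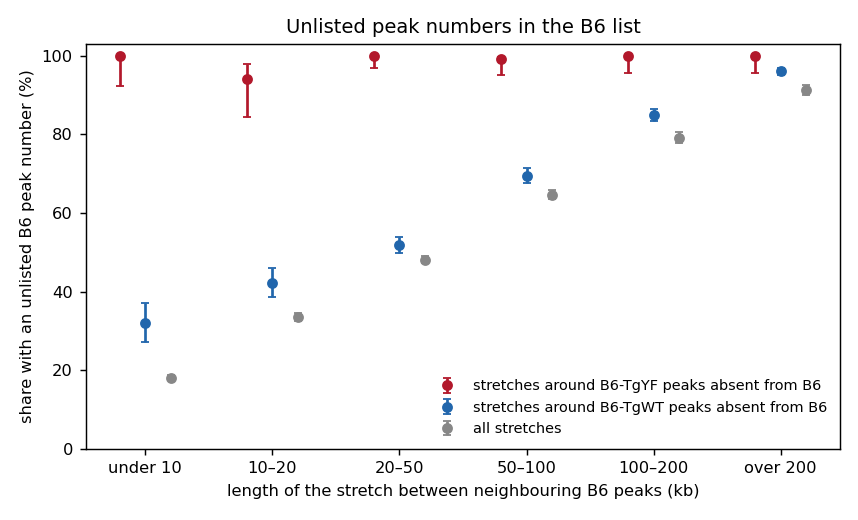
Share of peaks, or for grey of stretches, with at least 1 unlisted B6 peak number between the neighbouring B6 peaks (vertical, %), by length of the stretch (horizontal, kb), with 95% Wilson intervals as bars. Around B6-TgYF peaks absent from B6 (red) the share is 94.2% to 100% in every class, around B6-TgWT peaks absent from B6 (blue) it runs from 32.0% to 96.0%, and over all stretches (grey) from 18.1% to 91.4%.

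The B6-TgWT list behaved alike around the same peaks. Of the 502, 428 overlapped no B6-TgWT peak, and 422 of the 427 of these with a B6-TgWT peak on both sides (98.8%, interval 97.3 to 99.5) lay in a stretch with an unlisted B6-TgWT number. The share over all stretches of that list was 54.3%. In stretches under 10 kb it was 28 of 29 around these peaks, against 24.4% of all stretches. In longer stretches the shares came closer, at 98.1% and 83.0% from 50 to 100 kb and at 100% and 98.1% above 200 kb. Both other lists held an unlisted number around 419 of the 428.

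The exceptions were 4 peaks with no unlisted B6 number in their stretch, named here after their values were seen. They lay at chr10:22664005-22664210 (fold 3.55), chr12:81371815-81372192 (fold 3.46), chr17:15834983-15835521 (fold 2.38) and chr19:59492285-59493191 (fold 3.83). Only the one on chromosome 19 had a B6-TgWT peak, with a fold of 4.02 in that list. Their −log10 p values were 11.91, 11.31, 11.87 and 16.94, where the median of the 502 was 13.135, so the one on chromosome 19 was above it and the others below.

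Of the 502 peaks, 74 (14.7%, interval 11.9 to 18.1) were matched in the B6-TgWT list. The lowest −log10 p was 12 in that list and 11 in the B6-TgYF list, where 97 of the 502 were under 12. Among the 405 with a −log10 p of at least 12, the share was 16.0% (12.8 to 19.9). The share was 47.8% (29.2 to 67.0) among the 23 with a −log10 p of at least 20, and 66.7% when absence from B6 was set by summits over 500 bp apart, a rule that lets in peaks overlapping B6. The share over all B6-TgYF peaks was 86.4%, and over those overlapping B6 it was 87.3%. Weak B6-TgYF peaks were shared less often in general, so deciles of fold enrichment were compared. In the weakest decile 13.6% (10.2 to 17.9) of the peaks absent from B6 overlapped B6-TgWT, against 48.8% (47.2 to 50.4) of those overlapping B6. In the second decile the shares were 8.78% and 54.9%, and in the third 39.0% (25.7 to 54.3) and 76.0%. Within classes of −log10 p the gap was smaller among the weakest peaks. From 11 to 12 the shares were 9.28% and 28.0%, and from 12 to 13 they were 16.8% and 37.9%. From 15 to 20 they were 14.4% and 57.4%, and from 20 to 30 they were 45.0% and 81.4%. The peaks absent from B6 had the lower share in every class. Seen from the other list, 69 of those 9002 peaks without a B6 counterpart (0.766%, interval 0.606 to 0.969) overlapped one of the 502.

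**Figure D3:**
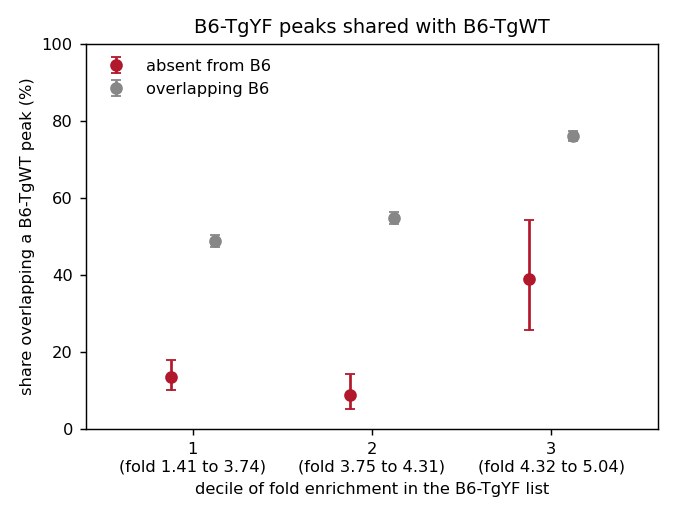
Share of B6-TgYF peaks that overlap a B6-TgWT peak (vertical, %) in the 3 weakest deciles of fold enrichment of the B6-TgYF list (horizontal), which hold 498 of the 502 peaks, with 95% Wilson intervals as bars. Peaks absent from B6 (red) lie at 13.6%, 8.78% and 39.0%, below the peaks overlapping B6 (grey) at 48.8%, 54.9% and 76.0%.

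In B6-TgYF the 74 shared peaks had a median fold of 3.705 and a median width of 592.5 bp, against 3.65 and 523 bp for the 428 others. Their B6-TgWT partners had a median fold of 4.06, at percentile 14.7 of that list, where the 9002 B6-TgWT peaks absent from B6 had a median percentile of 33.5. So they were mostly weak in both lists. At 5 of the 74 the B6-TgWT partner also touched a B6 peak, and at 69 it did not. Folds from 2 lists are not on a common scale, so their order is a description, and the B6-TgWT fold was the higher one at 51 of the 74.

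A few of them stood out by a strong B6-TgWT partner. At 12 of the 74, named after their values were seen, the partner lay in the stronger 50% of the B6-TgWT list, while 11 of these 12 lay in the weaker 50% of the B6-TgYF list. At chr8:86703712-86704888 the fold was 5.04 in B6-TgYF and 12.87 in B6-TgWT, where the peak ran from 86703648 to 86705225. At chr8:87239703-87240357 the fold was 3.43 in B6-TgYF and 12.65 in B6-TgWT, with a B6-TgWT peak from 87239451 to 87241695. Both B6-TgYF peaks thus lay inside wider B6-TgWT peaks.

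At chr6:51003994-51005064 the folds were 5.35 in B6-TgYF and 11.36 in B6-TgWT, and at chr7:89158451-89159564 they were 4.86 and 9.68. At chr6:52170068-52170404 they were 3.55 in B6-TgYF and 13.28 in B6-TgWT. That B6-TgYF peak lay only 7 bp from a B6 peak, and its B6-TgWT partner spanned 52169864 to 52172668. Of the rest, 4 had partners with folds of 9.18 to 8.39 in B6-TgWT against 3.26 to 3.64 in B6-TgYF, on chromosomes 13, 15, 2 and 6. The last ones lay at chr15:98239545-98239840, with 3.58 in B6-TgYF and 7.65 in B6-TgWT, and at chr8:34547762-34548656, with 4.71 and 7.43. The partners at chr6:52170068-52170404, chr7:89158451-89159564 and chr15:98239545-98239840 also touched a B6 peak, while the B6-TgYF peaks lay 7, 597 and 218 bp from one. All of the 11 had an unlisted B6 number in their stretch, from 1 to 9 of them.

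**Figure D4:**
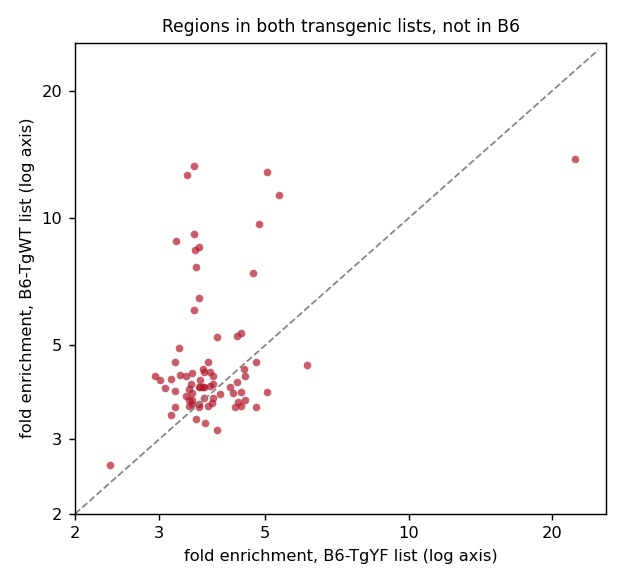
Fold enrichment in the B6-TgYF list (horizontal, log axis) against that of the overlapping B6-TgWT peak (vertical, log axis) for the 74 B6-TgYF peaks absent from B6 that overlap B6-TgWT, with equal folds on the dashed line. Most points crowd near a fold of 4 in both lists, a column of 11 points rises to B6-TgWT folds of 7.43 to 13.28 at B6-TgYF folds of 3.26 to 5.35, and 1 point lies at 22.32 and 13.8.

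The strongest of the 502 lay on chromosome 6, with a fold of 22.32 in B6-TgYF, at percentile 81.8, and 13.8 in B6-TgWT, at percentile 74.7. The second strongest lay in the same stretch without B6 peaks, with folds of 6.12 in B6-TgYF and 4.5 in B6-TgWT. Between the flanking peaks found in all 3 lists, 1201 kb apart, the B6-TgYF list had 17 numbered calls, of which 2 were listed, and the B6-TgWT list had 16, of which 2 were listed. The B6 list had 3, of which 0 were listed. Of the stretches between such common flanks that held any of the 502, the 10 others of 1000 to 1500 kb had 4 to 19 numbered calls in B6-TgYF, 7 to 28 in B6-TgWT and 5 to 17 in B6. The transgenic counts of the chromosome 6 stretch lay within these ranges and its B6 count below.

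The third strongest of the 502 was the strongest without a B6-TgWT peak. It lay at chr5:21908177-21908891, with a fold of 6.04, at percentile 39.7, and a −log10 p of 32.58. Its stretch of 203.1 kb between B6 peaks held 6 unlisted B6 numbers, and its B6-TgWT stretch held 10. Of the 10 strongest, the remaining ones without a B6-TgWT peak lay at chr10:63513443-63513904 (fold 5.03), chr9:119570124-119571020 (fold 4.91), chr5:125283402-125284476 (fold 4.9) and chr3:103242752-103243220 (fold 4.88). Their stretches held 3, 1, 1 and 4 unlisted B6 numbers. The last of the 10, at chr8:105929596-105930531, had folds of 5.04 in B6-TgYF and 3.89 in B6-TgWT.

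A small group broke the relation between fold and −log10 p. Of the 502, 10 had a fold under 2.5, named after their values were seen, against 6 of the 41035 B6-TgYF peaks overlapping B6. Their −log10 p values ran from 11.87 to 21.75, within the range of the others. Of the 10, 5 lay on chromosome 17. The lowest folds, 1.45 and 1.53, belonged to neighbours at chr17:39980080-39983684 and 39985030 to 39985774, 639471 and 637381 bp from the nearest B6 peak. The next lay at chr9:56108162-56108570 (fold 2.17) and chr2:98506895-98507170 (fold 2.21).

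At chr17:15720231-15720533 and at 15834983 to 15835521 a pair of these low-fold peaks, with folds of 2.28 and 2.38, lay in a stretch crowded with numbered calls in both transgenic lines. From the last peak before the pair that all 3 lists shared to the first such peak after it, 15714856 to 15840742, the B6-TgYF list had 53 numbered calls, with 5 listed, and the B6-TgWT list 48, with 4 listed. The B6 list had 5, with 4 listed. The 65 other stretches of 100 to 150 kb with one of the 502 had at most 13 numbered calls in B6-TgYF, 16 in B6-TgWT and 15 in B6. At the 3 shared peaks between the pair, the folds were 3.35, 3.08 and 3.26 in B6-TgYF, 3.2, 5.35 and 2.63 in B6-TgWT, and 7.07, 6.28 and 4.49 in B6. The shared peaks that flank the stretch had 5.56 and 19.44 in B6-TgYF, 3.41 and 13.68 in B6-TgWT, and 6.99 and 26.53 in B6. All 5, inside and at the edges, were thus lower in both transgenic lists than in B6, where the medians over all peaks were 7.52 in B6-TgYF, 6.81 in B6-TgWT and 7.72 in B6. Prdm9 lies on chromosome 17 in RefSeq's table for GRCm38, and the clone RP23-159N6 is known to carry it. Whether the stretch is the one in the clone was not tested.

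The 21 peaks at the start of chromosome 11 differed from the other 502 in most measures. They lay between 3030711 and 3100014, within 69.3 kb, and covered 14.5% of it. The median gap from one to the next was 2113 bp. Their folds ran from 1.41 to 1.83 with a median of 1.53, and their −log10 p from 11.4 to 30.92 with a median of 14.16. Of the 438 peaks elsewhere in the same range of −log10 p, the median fold was 3.715, and 2 had a fold no higher than 1.83, the pair of lowest folds on chromosome 17. Their median width was 404 bp. The highest folds were 1.83 at 3030711 to 3030987, the first of the group, 1.72 at 3092706 to 3094331, the widest with 1626 bp, and 1.68 at 3088129 to 3088417. The last one, at 3099520 to 3100014, also had a fold of 1.68.

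None of the 21 overlapped a B6-TgWT peak. The interval of up to 15.5% treats these close neighbours as separate peaks, so it says little about the stretch. In the same 69.3 kb the B6-TgYF list held 3 further peaks that overlapped B6, with folds of 1.68, 1.55 and 2.03. The B6-TgWT list held 2 peaks there, with folds of 1.58 and 1.78, and the B6 list 3, with folds of 1.54, 1.41 and 1.76. Low folds were thus common to the peaks of all 3 lists in this stretch, and the number of calls was not. Between the shared peaks that flank the group, 77.7 kb apart, the B6-TgYF list had 77 numbered calls, of which 24 were listed, the B6-TgWT list 31, of which 2 were listed, and the B6 list 21, of which 3 were listed. The 104 stretches of 50 to 100 kb with one of the 502 had medians of 4 in B6-TgYF, 4 in B6-TgWT and 3 in B6. They had at most 31 in B6-TgYF, 23 in B6-TgWT and 11 in B6. The 31 and the 23 were reached in the chromosome 17 stretch that holds the peak at 15720231 to 15720533. All 3 lists thus had more calls at the start of chromosome 11 than any of these stretches, although its span joins neighbouring stretches. All 21 had at least 1 unlisted B6 number in their stretch, and up to 13, but several peaks shared a stretch. Those from 3035550 to 3061835 lay in the same B6 stretch, with 1 unlisted B6 number for all of them. There the unlisted B6 numbers were fewer than the peaks.

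**Figure D5:**
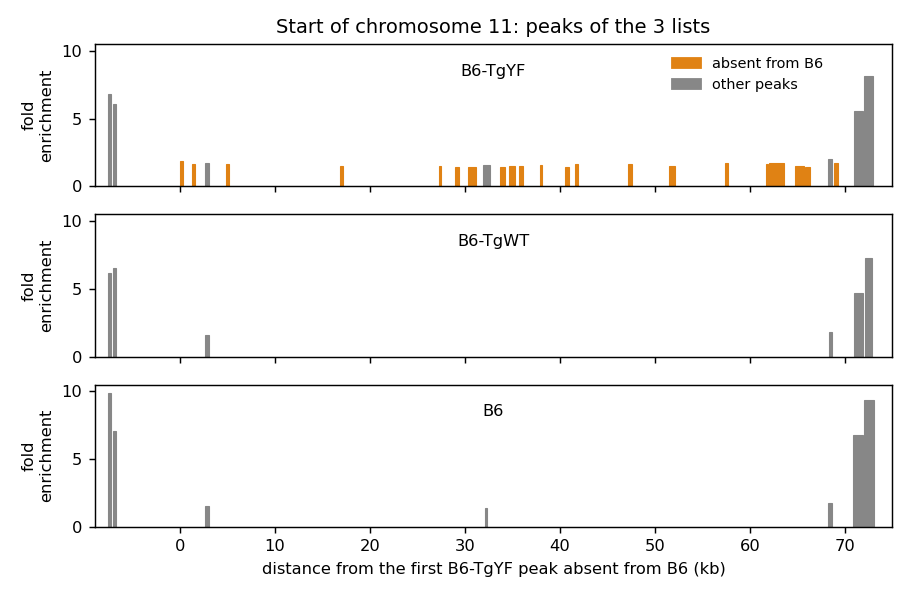
Peaks of the B6-TgYF, B6-TgWT and B6 lists around the start of chromosome 11, as bars from each peak's start to its end (horizontal, kb from the first B6-TgYF peak absent from B6) with fold enrichment as height (vertical, linear from 0). The 21 B6-TgYF peaks absent from B6 (orange) stand at folds of 1.41 to 1.83 between flanking peaks that all 3 lists share (grey), where B6-TgWT has 2 peaks and B6 has 3.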

How the data were processed

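Per the labels, whole testes of B6-TgYF, B6-TgWT and B6 mice went into H3K4me3 ChIP-seq. The authors deposited 1 peak list per line for both libraries and the input. Per the submitters' processing notes, the build was mm9 and the tools were MACS2, BWA, Bowtie2 and CASAVA. No source used here states their cutoffs or how replicates were handled. The lowest −log10 p was 11 in the B6-TgYF and B6 lists and 12 in the B6-TgWT list. The 10 columns, which have no header, were read in MACS order. The deposited score was 10 times the −log10 p, truncated. The deposited fold is a ratio to background, and the −log10 p and −log10 q are the authors' too. All are the peak's own values, used to describe, rank or group peaks within a list. The lists hold no read counts, so depth is unknown.

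Coordinates count from 1. Overlap meant at least 1 bp. Percentiles and deciles were taken over a list's peaks on chromosomes 1 to 19. Unlisted peak numbers were counted between neighbouring listed peaks. Common flanks are the nearest B6-TgYF peaks that overlap both other lists. The spans described on chromosome 17 and at the start of chromosome 11 run across such peaks and join neighbouring stretches. Intervals of shares are 95% Wilson intervals, those of medians 95% order-statistic intervals. On 12438 simulated peaks, overlap, distance and unlisted numbers came out right in 100%. Named regions were the 10 strongest, the 10 strongest by mean percentile with B6-TgWT, the 3 widest, those nearest to the rule, groups of 3 within 100 kb and, at the start of chromosome 11, the 3 strongest and both ends. The members, the rules and the lists were chosen with earlier results of these data known. The use of peak numbers, which are assumed to count all calls, the length classes and the regions said to be named after their values were added later. Alternatives were other overlap rules, higher −log10 p, chromosome X, −log10 q and the start of chromosome 11. The gene lists set out for an mm9 annotation were not used. Software was matplotlib 3.10.9, scipy 1.17.1, pandas 2.3.3 and numpy 2.4.6 on Python 3.11.15. The positions of the 2 strongest peaks, on chromosome 6, are not reported here.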

Additional observations from a re-analysis of the deposited data

Results flagged for a closer look

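Chromosome X was outside the rule. There, 7 of the 938 B6-TgYF peaks (0.746%) overlapped no B6 peak, which is given because the comparisons above do not use them and the count is over the 3 that a count of 0 allows. The share was not high, as it was 1.26% on chromosomes 1 to 19, and 1 of the 7 overlapped a B6-TgWT peak. Their folds ran from 1.89 to 3.97. On chromosome Y, 0 of 5 B6-TgYF peaks lacked a B6 counterpart.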

How the results depend on the processing

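Of 60 alternatives over 9 results, 36 left a count within 1.5 times its value or a share or median within its interval, 24 did not, and none reversed. The cause was not tested, except where a setting drops or adds peaks by construction. Asking for summits over 500 bp from every B6 summit, which lets peaks that overlap B6 in, gave 1920 peaks in all and 1900 outside the start of chromosome 11, of which 66.7% overlapped B6-TgWT and 28.7% had another within 100 kb, with a median percentile of 25.2, a median width of 883 bp and a median distance to B6 of 0 bp. Unlisted numbers could not be counted for that setting. With −log10 p of at least 20, 25 peaks remained, 2 at the start of chromosome 11 and 23 elsewhere, of which 47.8% overlapped B6-TgWT, 0% had another within 100 kb and 100% had an unlisted B6 number, with a median percentile of 26.7, a median width of 745 bp and a median distance of 14390 bp. Without B6 peaks within 500 bp or 1 kb, the median distance was 12740 bp and 13907 bp, and 7.32% and 6.18% had another within 100 kb. That share was 13.4% with the start of chromosome 11 included. With −log10 p of at least 12, chosen after the data were seen, the median percentile was 9.38 and 99.8% had an unlisted B6 number. Ranking by −log10 q gave a median percentile of 5.14. No paired analysis was possible because both libraries of a line share 1 list, so leaving out a library was not run either. Unknown depth limits every call of absence.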
